A study of Mus musculus with 3 samples.

Results

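The pathway that runs from epidermal growth factor receptor (EGFR) ligands through Ras and the mitogen-activated protein (MAP) kinases to AP-1 was examined in skin papillomas of mice with no, endogenous and added galectin-7. Its 54 genes were chosen by name, as the ligands, receptors, Ras and kinase components, protein kinase C isoforms, feedback inhibitors and AP-1 subunits of the route that the tumour protocol acts on, and all 54 were found among the 24028 gene identifiers of the count table. Papillomas, benign epidermal tumours, were induced with DMBA, a carcinogen, and TPA, a tumour promoter, in C57BL/6 mice. The wild-type (WT) group keeps endogenous galectin-7, Lgals7-/- lacks it, and Tg46 carries a transgene with constitutive galectin-7 from the keratin 14 promoter, which is active in basal keratinocytes. Every group received DMBA and TPA, so no untreated skin enters the comparisons. Each genotype is 1 library made from 3 pooled tumours, so no difference has a replicate check and no p-values are given. The comparisons ask how galectin-7 relates to the tumour transcriptome.

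In mouse skin DMBA is known for activating mutations in Hras, and TPA activates protein kinase C in place of its natural lipid activator. Growth factors of the EGF family, shed from the cell surface by ADAM17, bind ERBB receptors, whose adaptors bring the SOS exchange factors to Ras. Active Ras starts the RAF, MEK and ERK kinase cascade, which induces AP-1 and ETS factors and, with them, the DUSP and Sprouty proteins that damp the signal. The data are transcript counts and hold no measure of Ras mutation or kinase activity.

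The libraries were shallow, with 172011, 312600 and 354499 counts in WT, Lgals7-/- and Tg46, the order used for every set of 3 values below. A floor of 3 counts equals 17.4, 9.11 and 8.95 CPM (counts per 1000000 scaled counts). Intervals and floors cover counting error only. Lgals7 itself held 0, 2 and 4 counts, too few to check the genotypes, with none in WT, which keeps the gene, and 2 in Lgals7-/-, which lacks it. Whether the deposited table holds all counted reads of these libraries could not be checked, so each count below is a count in that table. All 5 basal keratinocyte markers and all 4 suprabasal markers analysed stood above the level of chemosensory receptor genes in every library. The suprabasal markers summed to 446, 960.0 and 1006 CPM, so that Lgals7-/- and Tg46 stood at 2.15 (1.67 to 2.80) and 2.26 (1.76 to 2.93) times WT. The basal ones summed to 521, 638 and 743 CPM, or 1.22 (0.952 to 1.59) and 1.43 (1.12 to 1.84) times WT. Single markers did not all move with these sums. In each of the 2 comparisons with WT, 3 suprabasal markers stood above WT and 1 below, and 3 basal markers above and 2 below. The part of both sets of markers in the differences from WT given below was not tested. In such bulk samples fewer cells of a type and less RNA per cell cannot be told apart.

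The upstream sequences of Areg, Btc, Jun and Spry1, a pair of ligands, an AP-1 subunit and a feedback inhibitor, are shown as examples of called genes. Areg was called higher, and Jun and Spry1 lower, in Tg46 than in Lgals7-/-. Btc was called lower than WT in both other libraries. Each is the 250 bases before the annotated start, 5′ to 3′ on the gene's strand, from RefSeq (GRCm38.p6, the mm10 assembly). Capitals mark matches to TGANNTCA, which cAMP response element binding proteins and some AP-1 dimers are known to bind.
Areg, chr5:91139349-91139598, plus strand: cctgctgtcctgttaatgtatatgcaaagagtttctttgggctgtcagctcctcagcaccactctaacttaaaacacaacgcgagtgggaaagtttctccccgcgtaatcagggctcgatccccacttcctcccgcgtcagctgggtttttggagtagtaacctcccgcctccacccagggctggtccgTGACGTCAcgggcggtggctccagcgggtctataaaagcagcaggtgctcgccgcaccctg
Btc, chr5:91402995-91403244, minus strand: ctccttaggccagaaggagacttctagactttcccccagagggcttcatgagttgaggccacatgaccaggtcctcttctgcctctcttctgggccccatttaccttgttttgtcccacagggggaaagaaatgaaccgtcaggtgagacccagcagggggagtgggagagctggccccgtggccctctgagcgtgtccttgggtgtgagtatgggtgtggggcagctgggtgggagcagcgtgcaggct
Jun, chr4:95052223-95052472, minus strand: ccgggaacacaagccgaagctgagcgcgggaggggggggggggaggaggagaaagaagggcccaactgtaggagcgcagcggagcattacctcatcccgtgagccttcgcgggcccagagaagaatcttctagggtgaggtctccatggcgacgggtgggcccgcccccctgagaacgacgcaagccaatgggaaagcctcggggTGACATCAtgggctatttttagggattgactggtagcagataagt
Spry1, chr3:37639697-37639946, plus strand: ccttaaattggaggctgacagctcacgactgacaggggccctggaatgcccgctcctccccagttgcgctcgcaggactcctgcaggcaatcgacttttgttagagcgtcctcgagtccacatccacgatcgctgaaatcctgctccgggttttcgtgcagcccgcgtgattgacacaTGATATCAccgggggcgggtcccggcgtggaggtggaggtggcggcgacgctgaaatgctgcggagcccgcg
The Areg match, TGACGTCA, lies 61 to 54 bases before the start, the Jun match, TGACATCA, 45 to 38 bases before it, and the Spry1 match, TGATATCA, 72 to 65 bases before it. Btc holds no match in this window. Both strands were searched for TGANNTCA, for TGACGTCA (which TGANNTCA includes), for the AP-1 site TGANTCA and for the CArG box of serum response factor. RefSeq windows matched 42 of the 54 genes by symbol, with 51 windows in all. TGANNTCA was found in 6 of these genes (Areg, Braf, Dusp1, Jun, Jund and Spry1), TGACGTCA in 3 (Areg, Braf and Dusp1), TGANTCA in 1 (Shc1) and the CArG box in 1 (Dusp5). Over 32851 windows of the same length the shares were 11.9%, 1.55%, 6.75% and 1.47%, against 11.8%, 5.88%, 1.96% and 1.96% of the 51 windows of these genes. Of the genes holding TGANNTCA, only Areg, Jun and Spry1 were called, and all are shown, so the examples do not stand for the called genes. A match is a run of letters and says nothing about binding in the papillomas.

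Summed over all 54 genes, the pathway held 429, 788 and 854 counts, which after scaling were nearly the same share of each library. The ratio of these sums was 0.964 (0.856 to 1.09) for Lgals7-/- over WT, 1.03 (0.913 to 1.16) for Tg46 over WT and 1.06 (0.965 to 1.17) for Tg46 over Lgals7-/-, with 95% counting intervals in parentheses here and below. Single genes held 0 to 40 counts in WT, 1 to 53 in Lgals7-/- and 1 to 74 in Tg46, with medians of 5, 12 and 13. A gene was compared where at least 1 library held 10 counts, which 40 of the 54 did: 11 in every library, 18 in 2 libraries and 11 in 1 library. Calls required that the ratio of scaled counts, with 0.5 counts added, reach 2-fold and that its interval exclude 1. Between Lgals7-/- and WT, 1 gene was called higher and 4 lower (2.5% and 10% of the 40), against 13.3% and 13.7% of all 12940 genes compared. Between Tg46 and WT, 5 were called higher and 4 lower (12.5% and 10%), against 13.7% and 13.9%. Between Tg46 and Lgals7-/-, 4 were called higher and 5 lower (10% and 12.5%), against 8.43% and 7.73%. In at least 1 comparison 19 of the 40 were called (47.5%), against 46% of all genes compared, so calls were about as frequent here as elsewhere in these libraries.

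The median log2 ratio of the 40 genes was 0.21, 0.16 and 0.08 in the 3 comparisons, beside 0.10, 0.11 and -0.03 over all genes compared. Its sign is not stable: with 5 counts added the first 2 medians were -0.11 and -0.15, and with total counts in place of TMM factors the last was -0.07. Of the 19 called genes, 9 (Areg, Hbegf, Btc, Erbb4, Sos2, Prkcb, Spry1, Jun and Etv4) reached 10 counts in 1 library only and were compared through their high library. These are 9 of the 11 members that passed in this way (81.8%), against 55.1% of all genes that did, and since the filter chose such genes by their high library, the share is given as a description only. The first 2 comparisons share the WT library, so a low or high count there moves both.

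**Figure D1:**
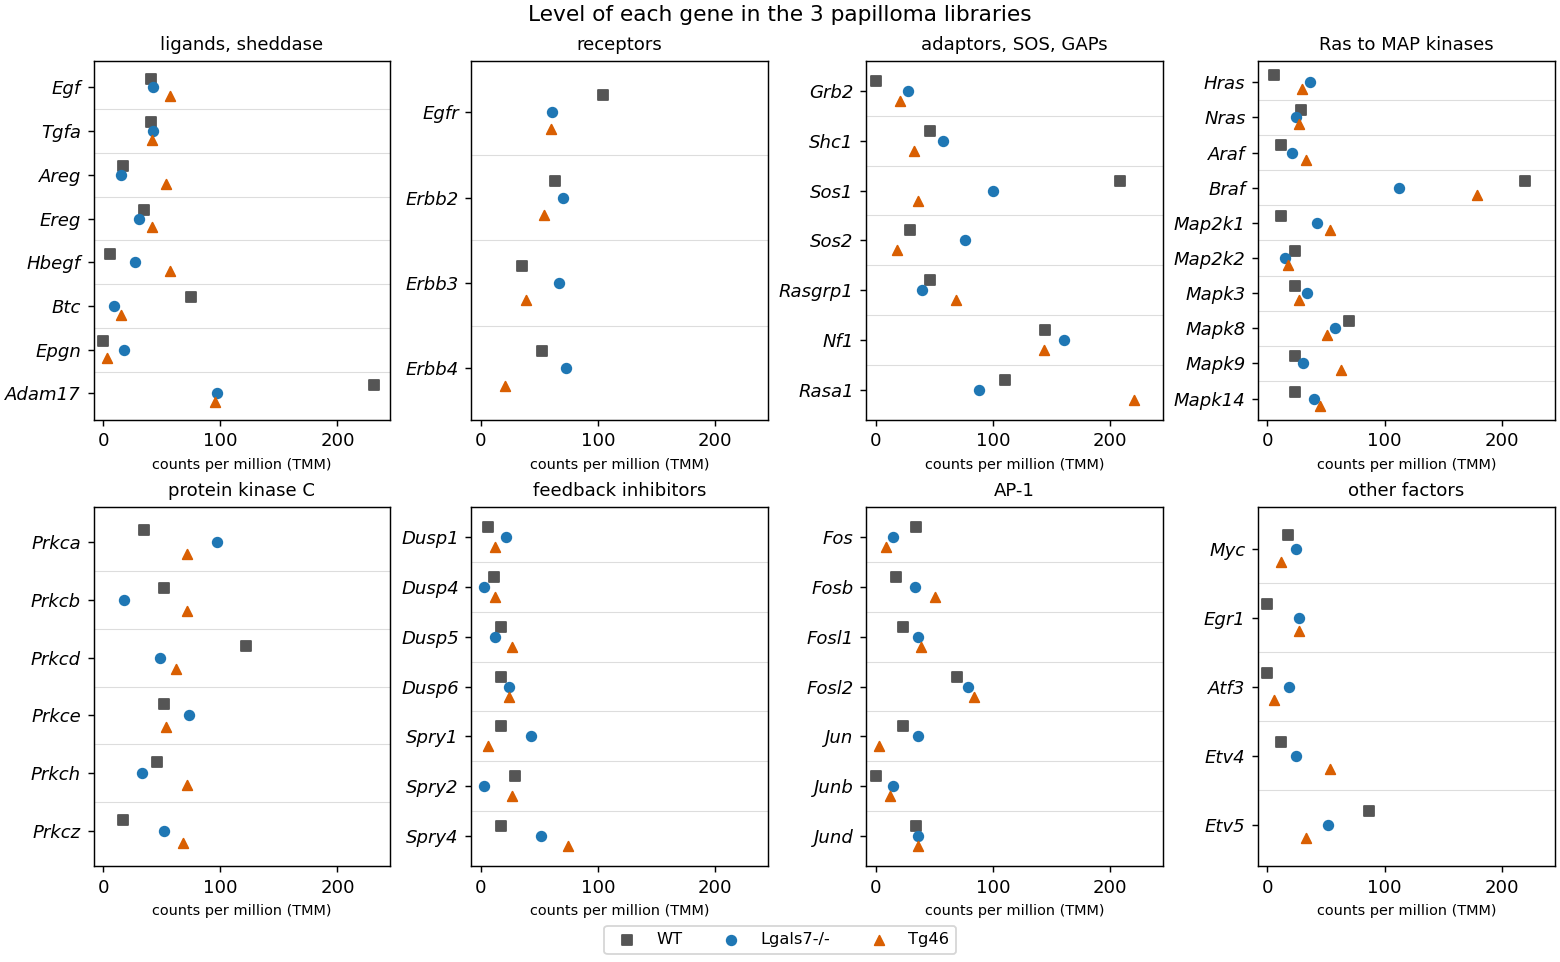
Level of each of the 54 genes (CPM after TMM scaling, linear axis) in the WT (squares), Lgals7-/- (circles) and Tg46 (triangles) libraries, 1 point per library, in panels by role. Adam17, Sos1 and Braf in WT and Rasa1 in Tg46 are the 4 rightmost points (at 232, 208, 219.9 and 221 CPM).

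Among the ligands, which activate EGFR and its relatives, Areg and Hbegf stood highest in Tg46 and Btc in WT. Areg (amphiregulin) held 3, 5 and 18 counts. Only Tg46 stood out, 3.30-fold above Lgals7-/- (1.27 to 12.2), while its ratio to WT, 2.72 (0.903 to 16.4), had an interval that included 1. Per kb of exon Areg was the highest of the 54 genes in Tg46, at 44.2 CPM per kb, beside 14.3 in WT and 12.5 in Lgals7-/-. Hbegf (heparin-binding EGF-like growth factor) held 1, 9 and 19 counts and was called 6.70-fold higher in Tg46 than in WT (1.56 to 407). The upper end of that interval is far off because WT held a single count, and the ratio of Tg46 to Lgals7-/- was 2.02 (0.894 to 5.20). Btc (betacellulin) was instead highest in WT, with 13, 3 and 5 counts. It was 7.35-fold lower than WT in Lgals7-/- (2.27 to 45.2) and 4.76-fold lower in Tg46 (1.69 to 18.1).

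The other ligands showed no call. Egf held 7, 14 and 19 counts, Tgfa 7, 14 and 14 and Ereg (epiregulin) 6, 10 and 14. Scaled to library size, Tgfa was nearly level across libraries and Ereg was lowest in Lgals7-/-. Epgn (epigen) held 0, 6 and 1 and did not reach 10 in any. Adam17, the protease that sheds several of them, held 40, 32 and 32 counts, highest in WT although that library is the smallest. Summed over the 7 ligands and Adam17, Tg46 stood at 1.29 (0.976 to 1.71) times Lgals7-/-, at 1.16 times without Areg and at 1.45 (1.04 to 2.04) times without Adam17. Adam17 was 2.37-fold lower than WT in Lgals7-/- (1.46 to 3.92) and 2.42-fold lower in Tg46 (1.49 to 3.99). In WT it was the highest of the 54 genes per kb, at 32.4 CPM per kb. Its exons overlap those of Iah1 on the opposite strand over 311 of 7154 bases, and Iah1 held 1, 14 and 18 counts. Use of strand during counting was not given in the sources used here. Reads of overlapping genes therefore cannot be told apart.

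The ERBB receptors bind these ligands and dimerize with each other. Egfr held 18, 20 and 20 counts, Erbb2 held 11, 23 and 18, and Erbb3 held 6, 22 and 13, with no call. Erbb4 held 9, 24 and 7 and was called 3.33-fold lower in Tg46 than in Lgals7-/- (1.46 to 9.59), the high library being Lgals7-/-. The 4 receptors summed in Tg46 to 0.640 (0.452 to 0.901) times the Lgals7-/- level, and to 0.771 times without Erbb4. In the same comparison macrophage and monocyte markers summed to 0.675 (0.473 to 0.956) times, with 2 of the 5 markers higher in Tg46 and 3 lower. Melanocyte markers, mostly Pmel, summed to 2.19 (1.91 to 2.53) times, with 3 of the 5 higher and 2 lower. Basal and suprabasal keratinocyte, fibroblast, endothelial, neutrophil, T and B cell and skeletal muscle markers stood at 0.876 to 1.16 times. Each of these had an interval that included 1. The part of any marked cell type in the receptor sum was not tested. Per kb of exon the order in WT was Erbb2 at 12.2, Egfr at 9.20, Erbb3 at 5.77 and Erbb4 at 4.22 CPM per kb.

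Adaptors and exchange factors connect the receptors to Ras. Sos1, which loads Ras with GTP (chromosome 17, 80393751 to 80480453, minus strand, mm10), was the only gene of the 54 called in every comparison. It held 36, 33 and 12 counts, highest in WT and lowest in Tg46 once scaled. It was 5.66-fold lower than WT in Tg46 (2.96 to 12.3) and 2.73-fold lower in Tg46 than in Lgals7-/- (1.41 to 5.95). Its difference of 2.08-fold between Lgals7-/- and WT, lower in Lgals7-/- (1.26 to 3.44), lost the call under total counts (a ratio of 0.505) and upper-quartile factors (0.559). Its relative Sos2 held 5, 25 and 6 counts and was 3.99-fold lower in Tg46 than in Lgals7-/- (1.70 to 12.6). No exon of either overlaps an opposite-strand exon.

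The GTPase-activating proteins switch Ras off. Of these, Rasa1 held 19, 29 and 74 counts and was called 2.48-fold higher in Tg46 than in Lgals7-/- (1.61 to 3.99). Its ratio of Tg46 to WT, 1.97 (1.20 to 3.52), missed the 2-fold threshold with an interval that excluded 1. Its exons overlap those of Ccnh over 12 of 7320 bases, and Ccnh held 47, 42 and 79 counts. Nf1 (neurofibromin) held 25, 53 and 48 counts with no call, and its ratio of Tg46 to Lgals7-/- was 0.890 (0.589 to 1.34). Of the adaptors, Shc1 held 8, 19 and 11 counts and Grb2 0, 9 and 7. Grb2 missed the filter of 10 counts. With WT set to the floor of 3 counts it stood at 1.57 times WT in Lgals7-/- and 1.20 times in Tg46. The intervals of its counts began at 1.04 and 0.743, so that for Tg46 included 1. Rasgrp1, an exchange factor that answers to diacylglycerol and TPA, held 8, 13 and 23 counts with no call, and its ratio of Tg46 to Lgals7-/- was 1.71 (0.844 to 3.73).

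**Figure D2:**
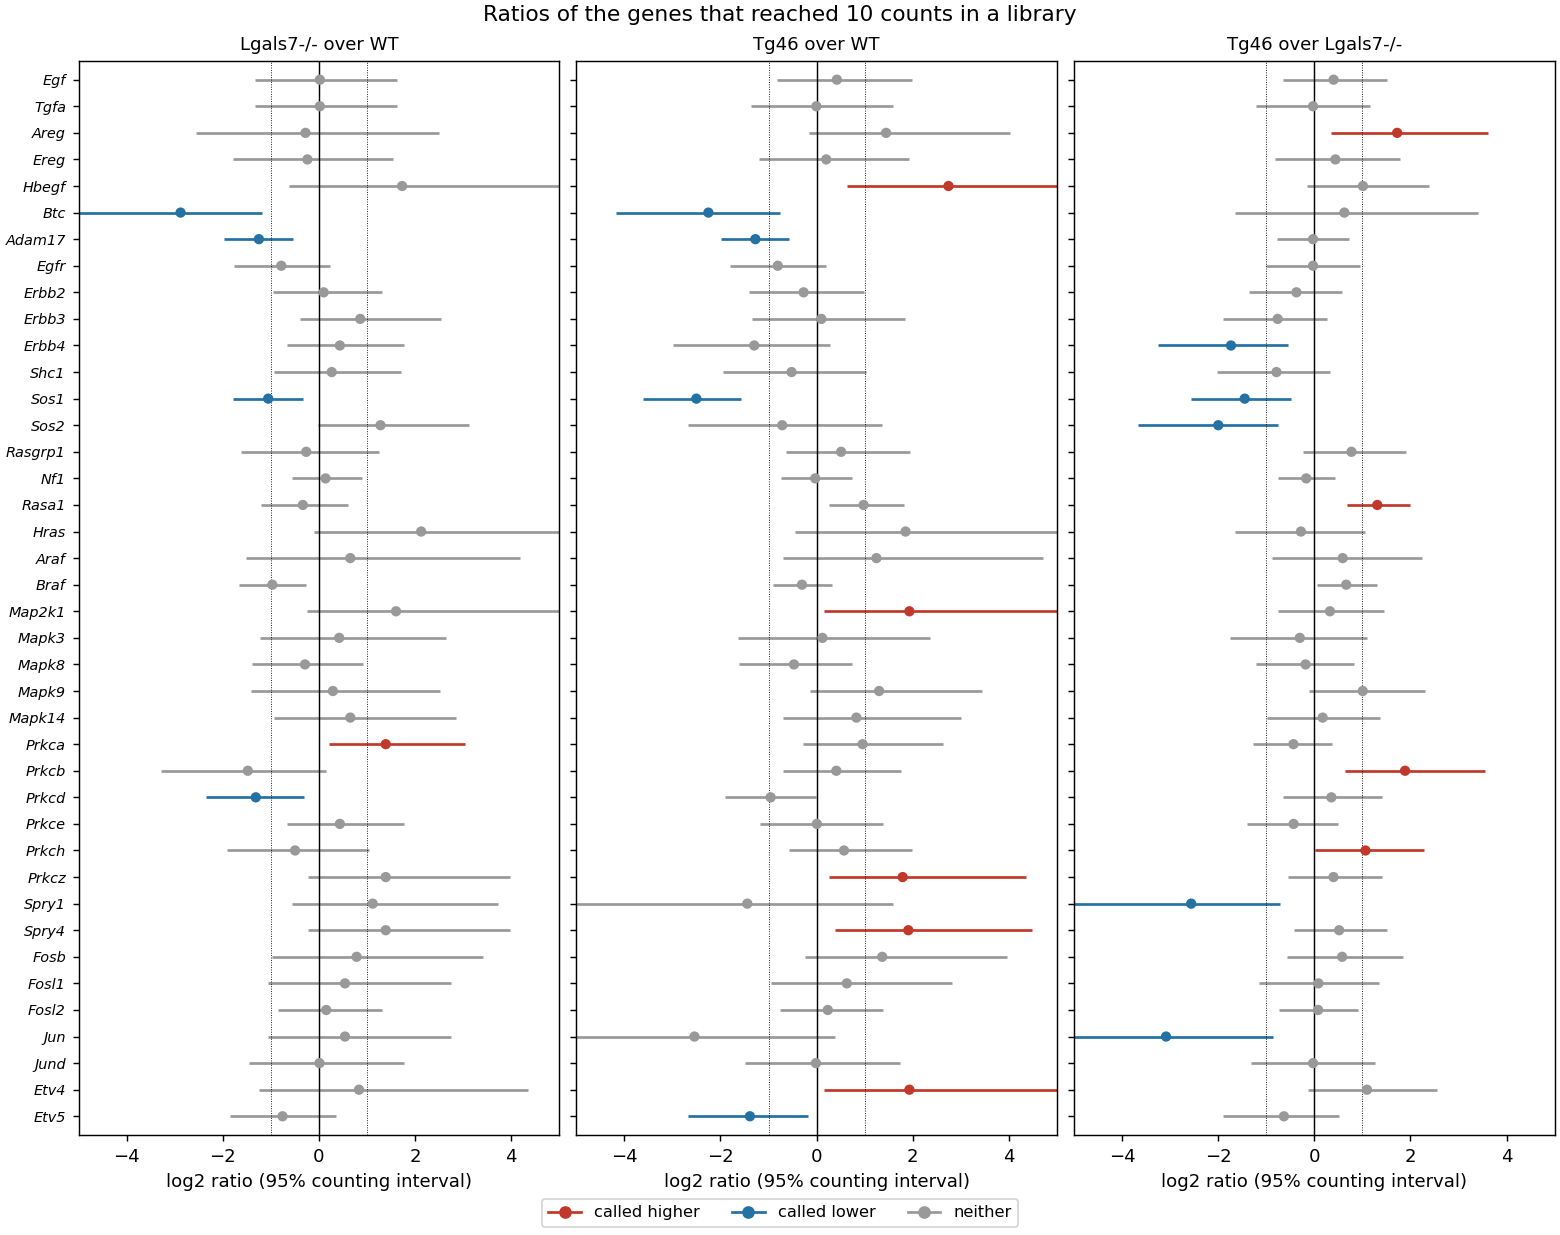
Log2 ratio (points) and its 95% counting interval (lines) for the 40 genes that reached 10 counts in a library, in the 3 comparisons, with dotted lines at 2-fold and intervals cut at the edge of a panel where they run past it. Genes called higher are red and lower blue, 1 and 4, 5 and 4, and 4 and 5 from left to right, and Sos1 is blue in every panel.

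Of the 10 genes of Ras and the kinases below it, 8 passed the filter. Of these 8, 1 was called higher in Tg46 over WT (12.5%, against 13.7% of all genes compared). No other call was made among them. Hras, the gene in which DMBA mutations are known, held 1, 12 and 10 counts. Low in WT alone, it had ratios to WT of 4.37 (0.932 to 269) in Lgals7-/- and 3.61 (0.733 to 224) in Tg46, and the difference was not detectable at this depth. Nras held 5, 8 and 9 counts, below the filter. Araf held 2, 7 and 11 counts and Braf 38, 37 and 60, and the ratio of Braf in Lgals7-/- to WT, 0.511 (0.316 to 0.826), was just short of the 2-fold threshold. Map2k1 (MEK1) held 2, 14 and 18 counts and was called 3.81-fold higher in Tg46 than in WT (1.11 to 41.2), a call lost with 5 counts added (1.69-fold). Its partner Map2k2 held 4, 5 and 6 counts, below the filter. The MAP kinases Mapk3 (ERK1) with 4, 11 and 9 counts, Mapk8 (JNK1) with 12, 19 and 17, Mapk9 (JNK2) with 4, 10 and 21 and Mapk14 (p38 alpha) with 4, 13 and 15 were not called in any comparison. Summed over the 10 genes, Tg46 stood at 1.27 (1.01 to 1.60) times Lgals7-/- and at 1.15 times without Braf.

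Protein kinase C isoforms, the receptors of TPA except for the atypical isoform zeta, differed from one another in direction. Prkca (alpha) held 6, 32 and 24 counts and was 2.62-fold higher in Lgals7-/- than in WT (1.15 to 8.19), the only gene of the 54 called higher there, and 1.77-fold higher, no longer called, with 5 counts added. Its exons overlap those of Apoh over 30 of 8992 bases. Prkcd (delta), an isoform known for restraining keratinocyte growth, held 21, 16 and 21 counts and was 2.48-fold lower in Lgals7-/- than in WT (1.24 to 5.13). Its ratio of Tg46 to WT was 0.516 (0.268 to 0.992), short of a call. Prkcb (beta) held 9, 6 and 24 counts and Prkch (eta, an isoform of differentiating keratinocytes) 8, 11 and 24. Both stood highest in Tg46, Prkcb 3.70-fold above Lgals7-/- (1.56 to 11.8) and Prkch 2.09-fold above it (1.01 to 4.85). Prkch was not called under total counts (1.88-fold), DESeq2 size factors (2.05-fold) or 5 added counts (1.78-fold). Prkcz (zeta) held 3, 17 and 23 counts and was 3.46-fold higher in Tg46 than in WT (1.19 to 20.6), or 1.80-fold and not called with 5 counts added. Prkce (epsilon), with 9, 24 and 18 counts, was not called. Summed over the 6 isoforms the ratios were 0.994 (0.712 to 1.40), 1.23 (0.897 to 1.72) and 1.24 (0.955 to 1.62) for Lgals7-/- over WT, Tg46 over WT and Tg46 over Lgals7-/-.

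The feedback inhibitors held few counts, and 5 of the 7 did not reach 10 counts in any library. Per kb of exon they summed to 5.41, 7.38 and 8.50 CPM per kb, beside 8.14, 7.85 and 8.36 for all 54 genes. Of the MAP kinase phosphatases, Dusp1 held 1, 7 and 4 counts and Dusp4 2, 1 and 4, while Dusp5 held 3, 4 and 9 and Dusp6 3, 8 and 8. Of the Sprouty genes, which block receptor signals to Ras, Spry1 was lowest and Spry4 highest in Tg46. Spry1 held 3, 14 and 2 counts and was 5.91-fold lower in Tg46 than in Lgals7-/- (1.64 to 64.6). Spry4 held 3, 17 and 25 counts and was 3.76-fold higher in Tg46 than in WT (1.31 to 22.2), or 1.93-fold and not called with 5 counts added. Spry2 held 5, 1 and 9 counts and missed the filter. The exons of Spry1 overlap those of Gm42922 on the opposite strand over 710 of 2906 bases, and those of Spry4 overlap none.

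AP-1 is the dimer of FOS and JUN family proteins that TPA is known to induce. Jun held 4, 12 and 1 counts, and in Tg46 it was the lowest of the 54 genes per kb at 0.936 CPM per kb. It was 8.48-fold lower in Tg46 than in Lgals7-/- (1.81 to 522), and its ratio of Tg46 to WT, 0.172 (0.00262 to 1.30), had an interval that included 1. Its exons overlap those of Junos over 232 of 3189 bases. Junb held 0, 5 and 4 counts, below the filter, and Jund 6, 12 and 12, so that Jund stood at 20.8, 21.9 and 21.5 CPM per kb, nearly level across libraries. Of the FOS family, Fos held 6, 5 and 3 counts and missed the filter. Fosb held 3, 11 and 17 counts, Fosl1 4, 12 and 13 and Fosl2 12, 26 and 28, with no call. Fosl1 shares 1163 of 2033 bases of exon with Ccdc85b on the other strand, which held 58, 90 and 370 counts. The 7 subunits summed to ratios of 1.24 (0.829 to 1.90), 1.15 (0.762 to 1.76) and 0.923 (0.669 to 1.27) in the 3 comparisons, all with intervals that included 1.

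Among the other induced factors the related ETS genes Etv4 and Etv5, known ERK targets, were called in opposite directions in Tg46 over WT. Etv4 passed the filter through Tg46 alone, its high library, and whether the 2 ratios differ was not tested. Etv4 held 2, 8 and 18 counts and was 3.81-fold higher in Tg46 than in WT (1.11 to 41.2), or 1.69-fold and not called with 5 counts added. Etv5 held 15, 17 and 11 and was 2.61-fold lower in Tg46 than in WT (1.14 to 6.37), a call lost with upper-quartile factors (a ratio of 0.452). Neither was called between Tg46 and Lgals7-/-, where the ratios were 2.14 (0.914 to 5.87) and 0.645 (0.269 to 1.44). Myc held 3, 8 and 4 counts, Atf3 (a stress-induced factor) 0, 6 and 2 and Egr1 (an immediate early zinc finger factor) 0, 9 and 9, all below the filter. With WT set to the floor of 3 counts, Egr1 stood at 1.57 times WT in Lgals7-/- and 1.55 times in Tg46, with lower interval ends of 1.04 and 1.02.

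**Figure D3:**
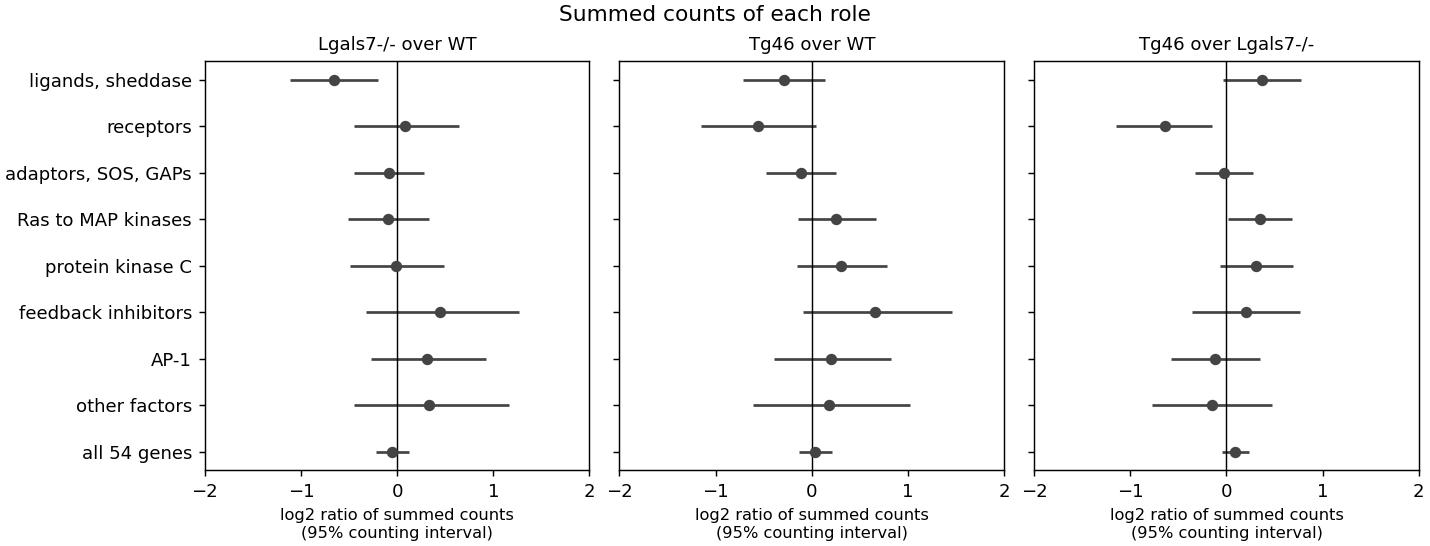
Log2 ratio of the counts summed over each role, with its 95% counting interval, in the 3 comparisons; the bottom line is the sum of all 54 genes. The sums of the ligands with Adam17 in Lgals7-/- over WT, and of the receptors and of Ras to MAP kinases in Tg46 over Lgals7-/-, have intervals that leave out 0.

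The sums by role show how far single genes carry them. The level of ligands with Adam17 in Lgals7-/- was 0.634 (0.464 to 0.869) times WT, and 0.865 times without Adam17. The sum of adaptors, exchange factors and GTPase-activating proteins in Tg46 stood at 0.982 (0.795 to 1.21) times Lgals7-/-, at 0.691 times without Rasa1 and at 1.12 times without Sos1. Feedback inhibitors in Tg46 stood at 1.57 (0.936 to 2.75) times WT, at 1.09 times without Spry4 and at 1.79 times without Spry1. The other induced factors in Tg46 stood at 1.13 (0.655 to 2.03) times WT, at 0.745 times without Etv4 and at 3.40 times without Etv5.

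Levels per kb placed the pathway between keratinocyte markers and genes that skin is not known to use. The 54 genes stood at 8.14, 7.85 and 8.36 CPM per kb of exon, beside 9.86, 9.41 and 10.4 for all annotated genes. The 1475 chemosensory receptor genes stood at 3.22, 2.53 and 2.36 CPM per kb, and the source of their counts was not tested. A gene was taken as above that level where the lower end of its exact Poisson interval exceeded it. In WT this held for 17 of the 54 genes, in Lgals7-/- for 41 and in Tg46 for 39, against 36.7%, 53% and 54% of all 23710 annotated genes. In every library it held for 13 (Adam17, Egfr, Erbb2, Shc1, Rasgrp1, Nf1, Rasa1, Braf, Prkcd, Prkce, Fosl2, Jund and Etv5), against 22.2%, and in at least 1 for all but 4, against 73.1%. Those 4 were Nras, Map2k2, Dusp4 and Junb, whose expression was not detectable above that of receptor genes at this depth. In Tg46 Sos1, at 3.38 CPM per kb, and Jun also did not exceed it. Nor did Btc, Epgn, Erbb4, Sos2, Dusp1, Spry1, Fos, Myc and Atf3 in that library.

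**Figure D4:**
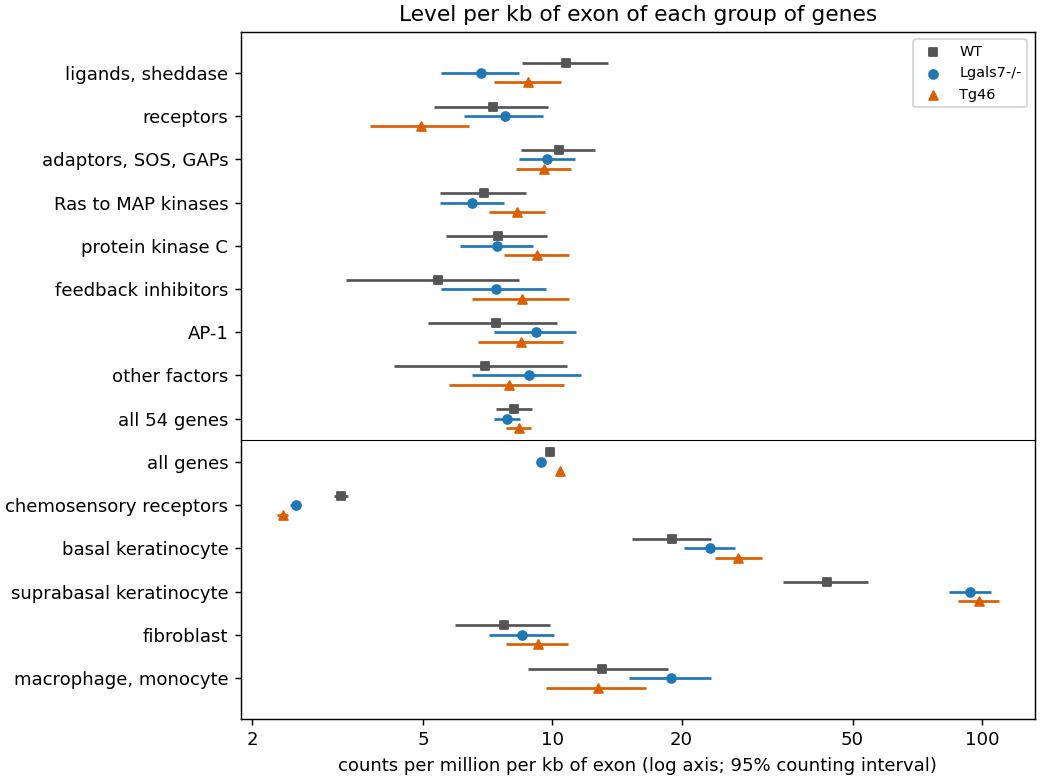
Summed level per kb of exon (log axis) of each role, of all 54 genes, all annotated genes, chemosensory receptors and 4 marker lists, in the WT (squares), Lgals7-/- (circles) and Tg46 (triangles) libraries, with exact Poisson 95% intervals. Every role lies above the receptors (2.36 to 3.22) and below the basal keratinocyte markers (19.0 to 27.1 CPM per kb).

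Further genes of the pathway were taken from 4 lists by function. Of 56 further components, 54 passed the filter, and 5 and 11, 6 and 9, and 6 and 2 were called higher and lower in Lgals7-/- over WT, Tg46 over WT and Tg46 over Lgals7-/-. These were 9.26% and 20.4%, 11.1% and 16.7%, and 11.1% and 3.70% of the 54. Over all genes compared the shares were 13.3% and 13.7%, 13.7% and 13.9%, and 8.43% and 7.73%. Mapk10 (JNK3) held 34, 8 and 21 counts, 7.73-fold lower than WT in Lgals7-/- (3.68 to 20.2). Map3k8, a MEK kinase, held 13, 3 and 4, 7.35-fold lower there (2.27 to 45.2). Map3k1 held 1, 25 and 19 counts, 8.92-fold higher than WT in Lgals7-/- (2.15 to 539), and the Ras exchange factor Rasgrp3 1, 18 and 30, 10.5-fold higher in Tg46 (2.57 to 631). These 4 kinases and exchange factors thus differed from WT in both directions. Map2k4 held 0, 10 and 15 counts, 1.75-fold and 2.58-fold higher than WT with WT set to the floor. Rras held 0, 3 and 13, 2.23-fold higher in Tg46 by the same floor. Between Tg46 and Lgals7-/-, Rras was 3.79-fold higher (1.17 to 23.3) and Mapk11 4.13-fold higher (1.05 to 46.1). Mapk7, which overlaps Mfap4, was 3.25-fold lower (1.62 to 7.64) and Plce1, a phospholipase that binds Ras, 2.53-fold lower (1.48 to 4.63).

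Of 16 further feedback inhibitors 15 passed, and 1 and 1, 1 and 2, and 0 and 2 were called higher and lower in the same order of comparisons. These were 6.67% and 6.67%, 6.67% and 13.3%, and 0% and 13.3% of the 15, beside the shares over all genes given above. Spred3 held 1, 21 and 20 counts (overlapping Ggn) and was 7.52-fold higher than WT in Lgals7-/- (1.77 to 456) and 7.05-fold higher in Tg46 (1.65 to 427). Spry3 held 25, 23 and 12 counts and was 2.07-fold lower than WT in Lgals7-/- (1.13 to 3.82) and 3.96-fold lower in Tg46 (1.96 to 8.83). Dusp16, a phosphatase of JNK and p38, held 20, 39 and 12 counts. It was 3.18-fold lower in Tg46 than in WT (1.51 to 7.25) and 3.22-fold lower than in Lgals7-/- (1.70 to 6.94). Lrig1, an inhibitor of ERBB receptors with 12, 29 and 14 counts (overlapping Slc25a26), was 2.07-fold lower in Tg46 than in Lgals7-/- (1.08 to 4.32).

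Of 28 further induced factors 18 passed, and 2 and 0, 3 and 0, and 2 and 1 were called higher and lower. As shares of the 18 these were 11.1% and 0%, 16.7% and 0%, and 11.1% and 5.56%. Klf4, a factor of differentiating epidermis, held 3, 7 and 32 counts and stood in Tg46 4.79-fold above WT (1.72 to 28.1) and 4.26-fold above Lgals7-/- (1.95 to 12.1). Egr3 held 4, 16 and 23 counts, 2.69-fold higher in Tg46 than in WT (1.01 to 11.8), and Nr4a1 1, 14 and 7, 5.07-fold higher in Lgals7-/- than in WT (1.12 to 311). Of 22 genes known to be induced by TPA or AP-1 in skin 9 passed, and 2 and 0, 3 and 0, and 1 and 2 were called higher and lower. As shares of the 9 these were 22.2% and 0%, 33.3% and 0%, and 11.1% and 22.2%. Mmp10 (stromelysin 2) held 0, 10 and 9 counts, 1.75-fold and 1.55-fold above WT with WT set to the floor. Hmga2 held 1, 19 and 21 (overlapping 1700006J14Rik), 6.82-fold above WT in Lgals7-/- (1.59 to 414) and 7.39-fold above it in Tg46 (1.74 to 448). Cd44, a hyaluronan receptor with 14, 38 and 15 counts, was 2.53-fold lower in Tg46 than in Lgals7-/- (1.39 to 5.05). Vegfa, a growth factor for endothelial cells with 2, 12 and 30 counts, was 2.40-fold higher there (1.22 to 5.27). Over the 4 lists together, 10 and 12, 13 and 11, and 9 and 7 of 96 genes were called higher and lower, or 10.4% and 12.5%, 13.5% and 11.5%, and 9.38% and 7.29%, near the shares over all genes compared (13.3% and 13.7%, 13.7% and 13.9%, and 8.43% and 7.73%). Their median log2 ratios were 0.11, 0.16 and 0.14, beside 0.10, 0.11 and -0.03 over all genes compared. These pooled values cover lists whose sums differed from WT in opposite directions. In Lgals7-/- the further components summed to 0.786 (0.709 to 0.873) times WT, and the TPA or AP-1 genes to 1.34 (1.05 to 1.71) times. The further induced factors summed to 1.55 (1.26 to 1.91) times WT in Tg46, and were also above WT in Lgals7-/- (interval 1.22 to 1.85). The other sums of single lists over WT had intervals that included 1.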

How the data were processed

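RNA from 3 pooled papillomas per genotype was made into 1 library with an Illumina kit, per the labels' protocols. The authors deposited whole-number read counts per Entrez identifier, and the submitters' processing notes name mm10. Aligner, counting tool and strand setting were not given in the sources used here. RefSeq symbols were found for 23968 of the 24028 identifiers and GENCODE M21 (GRCm38) models, the source of exon lengths, positions and overlaps, for 23710. Chemosensory receptors are the Olfr, Vmn1r, Vmn2r, Tas1r and Tas2r families.

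TMM factors from edgeR 4.0.16 in R 4.3.3 were 1.00, 1.05 and 0.945 in WT, Lgals7-/- and Tg46. Genes with 10 counts in at least 1 library were compared. Ratios of single genes have 0.5 counts added. Their 95% intervals, and those of ratios of sums, are exact Clopper-Pearson intervals of the pair of counts. Calls needed 2-fold and an interval that excludes 1. Against 0 counts a fold was computed with that library set to a floor of 3 counts. Such a fold leaves out the counting error of the other library and is not a lower bound. No test of genotype can be fitted with 1 library per group. The members and lists were chosen with earlier results of these data known. Every member is named, and of the other lists up to 4 called genes per list and comparison with the largest log2 ratio could be named. The procedure was tested on simulated data. Alternatives were other scalings (DESeq2 1.42.0 size factors, upper quartile, totals), filters, added counts, call rules and genes without opposite-strand exons. Python 3.11.15, scipy 1.17.1 and pandas 2.3.3 were used.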

Additional observations from a re-analysis of the deposited data

How the results depend on the processing

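Ratios of called members were recomputed under the other scalings and with 5 counts added only. Of these 92 ratios 81 kept their call and 11 lost it, and the losses are given beside the genes. None changed direction, but these settings could hardly reverse a 2-fold ratio, so that is no check of direction. Counts of calls moved more, and the shares over all genes moved with the setting as well. The members compared numbered 40, but 54 with no filter, 39 with a filter of 20 summed counts and 27 without opposite-strand exons. For Lgals7-/- over WT, the 1 gene called higher became 2 with total counts, 3 with upper-quartile factors, 3 with no filter, 8 with 2-fold alone, and 0 with 5 counts added, with a 4-fold threshold or without genes that have an opposite-strand exon, and the 4 called lower became 1 with a 4-fold threshold. Over all genes the shares called higher were, in that order, 14.5%, 17.3%, 7.93%, 25.3%, 4.51%, 9.21% and 13.7%. The share called lower with a 4-fold threshold was 5.53%. For Tg46 over WT, the 5 called higher became 8 with upper-quartile factors, 10 with 2-fold alone, and 1 with 5 counts added or a 4-fold threshold, and the 4 called lower became 7 with 2-fold alone and 2 with a 4-fold threshold. The shares over all genes were 18.2%, 25.6%, 5.09% and 8.76% called higher, and 18.2% and 5.90% called lower. For Tg46 over Lgals7-/-, the 4 called higher became 7 with 2-fold alone and 0 with a 4-fold threshold, and the 5 called lower became 3 with a filter of 20 summed counts, 2 with a 4-fold threshold and 3 without genes that have an opposite-strand exon. Here the shares over all genes were 14.0% and 2.51% called higher, and 6.47%, 2.39% and 8.64% called lower. Medians of the log2 ratio moved to 0.42 and 0.40 against WT with upper-quartile factors. They changed sign to -0.11 (Lgals7-/- over WT) and -0.15 (Tg46 over WT) with 5 counts added, and for Tg46 over Lgals7-/- to -0.073 with total counts and -0.026 with no filter. The cause was not tested. No paired analysis was possible because a genotype is represented by 1 library only. Limits are the single pooled library per genotype, the unknown use of strand, and depth, at which 14 of the 54 genes did not reach 10 counts in any library.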

Other observations

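The ligand genes Epgn, Ereg, Areg and Btc lie together on chromosome 5 (mm10, 91027464 to 91402994, a span of 376 kb), and their counts ran in different directions. In WT, Lgals7-/- and Tg46, Epgn held 0, 6 and 1 counts, Ereg 6, 10 and 14, Areg 3, 5 and 18, and Btc 13, 3 and 5. Areg was highest in Tg46 and Btc in WT within the same libraries. Whether their ratios differ from each other was not tested.

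Markers of other cell types were summed in CPM over each list, in WT, Lgals7-/- and Tg46. Of 6 fibroblast markers (365, 401 and 436 CPM) Lum was at 0 in WT. The 5 endothelial markers summed to 243, 188 and 199.9 CPM and the 5 macrophage and monocyte markers to 174, 252 and 170.1 CPM. Of 4 neutrophil markers (98.4, 112 and 98.5 CPM) Csf3r was at 0 in WT and Cxcr2 in Tg46, and of 6 T and B cell markers (168, 191 and 212 CPM) Cd4 was at 0 in WT and Ms4a1 in Lgals7-/-. The 5 skeletal muscle markers summed to 243, 167 and 158 CPM. The 5 melanocyte markers summed to 1285, 884 and 1939 CPM, mostly from Pmel (207, 257 and 624 counts), whose exons overlap those of Dgka and Cdk2 on the other strand. Their part in the ratios of the pathway genes was not tested.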
